A study of Mus musculus with 32 samples.

Results

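The 45 antiviral effector genes of the interferon response were followed in mouse lung endothelial cells (ECs) in which Dnmt1, the maintenance DNA methyltransferase, had been silenced. The 45 genes were chosen by name from the classes of proteins that act on viral RNA, viral assembly or virus entry, and each of the 45 matched 1 row of the 54429 gene symbols in the deposited table. All 45 passed the filter on low counts, among 15254 genes tested. The cells were the Veravec line, an established line of mouse lung ECs that carries no allele named in the labels. Cells received 2 transfections, of either control siRNA (the si-control groups) or siRNA that targets Dnmt1 (the si-dnmt groups). The paper lists 2 Dnmt1 siRNA sequences and does not say whether they were pooled or which libraries received which. The cells were afterwards left without cytokine or given TNFα at 10 ng/mL (TNF), IFNγ at 1000 U/mL (IFN) or both for 16 h. Each of the 8 groups held 4 libraries labelled as biological replicates, 32 in all, and every group had been through transfection. A single line was used, and the labels do not say whether the replicates were separate cultures on separate days, so the p-values measure the spread between these libraries.

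Type I interferons signal through IFNAR1 and IFNAR2 to a transcription factor complex that binds the interferon-stimulated response element (ISRE). IFNγ signals through a separate receptor, and its response uses the gamma-activated sequence (GAS) and induces IRF1, and the sets of genes that the interferons induce overlap. The products of the antiviral set bind or degrade foreign RNA, block virus entry or budding, or modify host proteins during infection, and many of them are made at low levels in resting endothelium.

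Dnmt1 was checked first. Its level, as a share of the library's counts scaled to CPM, was 90.1, 89.1, 153 and 148 in si-control replicates 1 to 4 and 10.3, 12.4, 6.45 and 6.53 in si-dnmt. The groups did not overlap, and the level fell by 3.76 on the log2 scale (SE 0.37), a 13.5-fold difference (edgeR quasi-likelihood test, adjusted p = 4.8e-08). Depth ranged from 17362546 to 33500030 counts per library. Of 10 endothelial markers, 10 were present, with a summed level of 5518 to 8316 CPM in si-control and 5085 to 7628 CPM in si-dnmt. The summed level of 9 leukocyte markers was 44.4 to 133.5 CPM in si-control and 13.4 to 72.1 CPM in si-dnmt, with Cd3e, Adgre1, Itgax and Siglech at 0 in both. Lyz2 had the highest count of the 9, up to 2500 in a library, and Csf1r up to 34. With silencing neither Lyz2 (-1.16 on the log2 scale, SE 0.73, adjusted p = 0.30) nor Csf1r (-0.15, SE 0.29, adjusted p = 0.78) was called. The other leukocyte markers had too few counts to be tested. The 4 pericyte markers summed to 7.58 to 26.3 CPM in si-control and 39.2 to 181.7 CPM in si-dnmt, where Acta2 rose by 2.83 on the log2 scale (SE 0.54, adjusted p = 0.00043). Of the others, Pdgfrb was not called (-0.08, SE 0.56, adjusted p = 0.95), and Rgs5 and Cspg4 had too few counts to be tested. The 5 epithelial markers summed to 6.84 to 22.6 CPM in si-control and 6.85 to 16.2 CPM in si-dnmt, and the 5 fibroblast markers to 1.64 to 2.64 and 3.78 to 7.13 CPM. The part of these markers in the results was not tested, and in bulk RNA fewer cells of a type and less RNA per cell cannot be told apart.

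In every group replicates 1 and 2 stood apart from replicates 3 and 4. This split was seen in the data, and the labels give no reason for it. The mean log2 CPM over the 45 genes was 5.28 (SD 0.24, n = 2) in si-control replicates 1 and 2 and 5.71 (SD 0.02, n = 2) in replicates 3 and 4, so the resting level was higher in the latter pair. With silencing it was 6.62 (SD 0.01, n = 2) and 6.12 (SD 0.18, n = 2), and with IFN in si-control 7.26 (SD 0.01, n = 2) and 6.55 (SD 0.04, n = 2). The silencing effect, the cytokine effects in si-control and the interactions are therefore also given within each pair.

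The sequence just upstream of several of the genes shows the element that interferon signalling uses. The stretches below set genes called higher with Dnmt1 silencing over all replicates beside genes that were not called. RefSeq promoter windows (250 bases before to 50 after the start, build GRCm38.p6) were found for 34 of the 45 genes, 43 windows in all. The ISRE was searched as GAAANNGAAA on both strands, and overlapping matches were each counted. It was present for 14 of the 34 genes (41.2%), against 3.99% of the 27025 symbols with a window. In the lines below, read 5′ to 3′ along the gene's strand, capitals mark the ISRE letters, and overlapping matches run together.
Oas1a: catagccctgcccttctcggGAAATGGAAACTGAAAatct
Oas1g: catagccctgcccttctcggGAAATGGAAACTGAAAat
Oas3: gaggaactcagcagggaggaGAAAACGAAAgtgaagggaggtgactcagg
Ddx60: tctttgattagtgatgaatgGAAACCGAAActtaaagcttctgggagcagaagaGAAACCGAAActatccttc
Rsad2: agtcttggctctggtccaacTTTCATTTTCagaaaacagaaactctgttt
Ifit1: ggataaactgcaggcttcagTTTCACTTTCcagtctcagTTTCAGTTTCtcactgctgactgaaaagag
Ifit3: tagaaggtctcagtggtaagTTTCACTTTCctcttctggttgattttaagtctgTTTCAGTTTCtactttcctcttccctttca
Ifit3b: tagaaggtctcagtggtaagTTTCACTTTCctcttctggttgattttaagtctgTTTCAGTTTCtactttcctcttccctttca
Slfn5: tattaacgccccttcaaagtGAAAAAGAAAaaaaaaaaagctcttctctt
Bst2: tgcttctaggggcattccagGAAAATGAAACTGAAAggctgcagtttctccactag
The stretches lie upstream of the start at chr5:120907526-120907565 for Oas1a, chr5:120887614-120887651 for Oas1g and chr5:120777705-120777754 for Oas3, all on the minus strand. Those of Ddx60 (chr8:61928014-61928086), Ifit1 (chr19:34640765-34640833), Ifit3 (chr19:34583353-34583436), Ifit3b (chr19:34607749-34607832) and Slfn5 (chr11:82951927-82951976) are on the plus strand, and those of Rsad2 (chr12:26456543-26456592) and Bst2 (chr8:71537567-71537622) on the minus strand. Ifit3 and Ifit3b, a duplicated pair, have the same letters over all 84 bases shown, and in both the matches read on the opposite strand. Oas1a and Oas1g share an overlapping pair of matches 20 and 18 bases before the start, respectively. The GAS, searched as TTCNNNGAA, was present for 6 of the 34 genes (17.6%), against 9.55% of all symbols.

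Genes with and without the ISRE letters both included genes that rose with silencing. Of the 14 with a match, 8 were called higher in si-dnmt, with a median log2 fold change of 0.97, and of the 20 without one, 14 were, with a median of 0.63. Bst2 and Slfn5, both with a match, were not called over all replicates. Within pairs, Slfn5 was called higher in both and Bst2 lower in replicates 3 and 4. Because Dnmt1 copies methylation at CpG, the CpG number in each window was counted as well. The median was 4.5 per window for the 34 genes and 7 over all symbols. It was 4 for the 22 genes called higher (range 0 to 46) and 5 for the 12 that were not called (range 1 to 18). Parp12 had the highest CpG count, 46, and Trim30a the lowest, 0. Both rose. These are descriptions of letters in a short window, and methylation was not measured.

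The first question was whether silencing alone moved these genes. In si-dnmt without cytokine 28 of 45 genes (62.2%) were called higher and 0 lower at an adjusted p under 0.05, when 9.58% of all genes tested were called higher and 8.88% lower. The median log2 fold change over the 45 was 0.69, against a median of -0.0049 over all genes. Positive estimates were found for 42 of the 45. In 25 genes every si-dnmt library lay above every si-control library, a pattern that 11.1% of all genes tested showed. With the replicate number as a block 34 were higher, Ifit1, Oas1b, Helz2, Ifi44, Ifi35 and Trim21 being added, and 1, Ifi27l2a, was lower (background 16.6% and 15.8%). The block fit takes the silencing effect as the same in all replicates. That effect was called different between the replicate pairs for 36 of the 45, so p-values with the block are to be read with this limit.

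**Figure D1:**
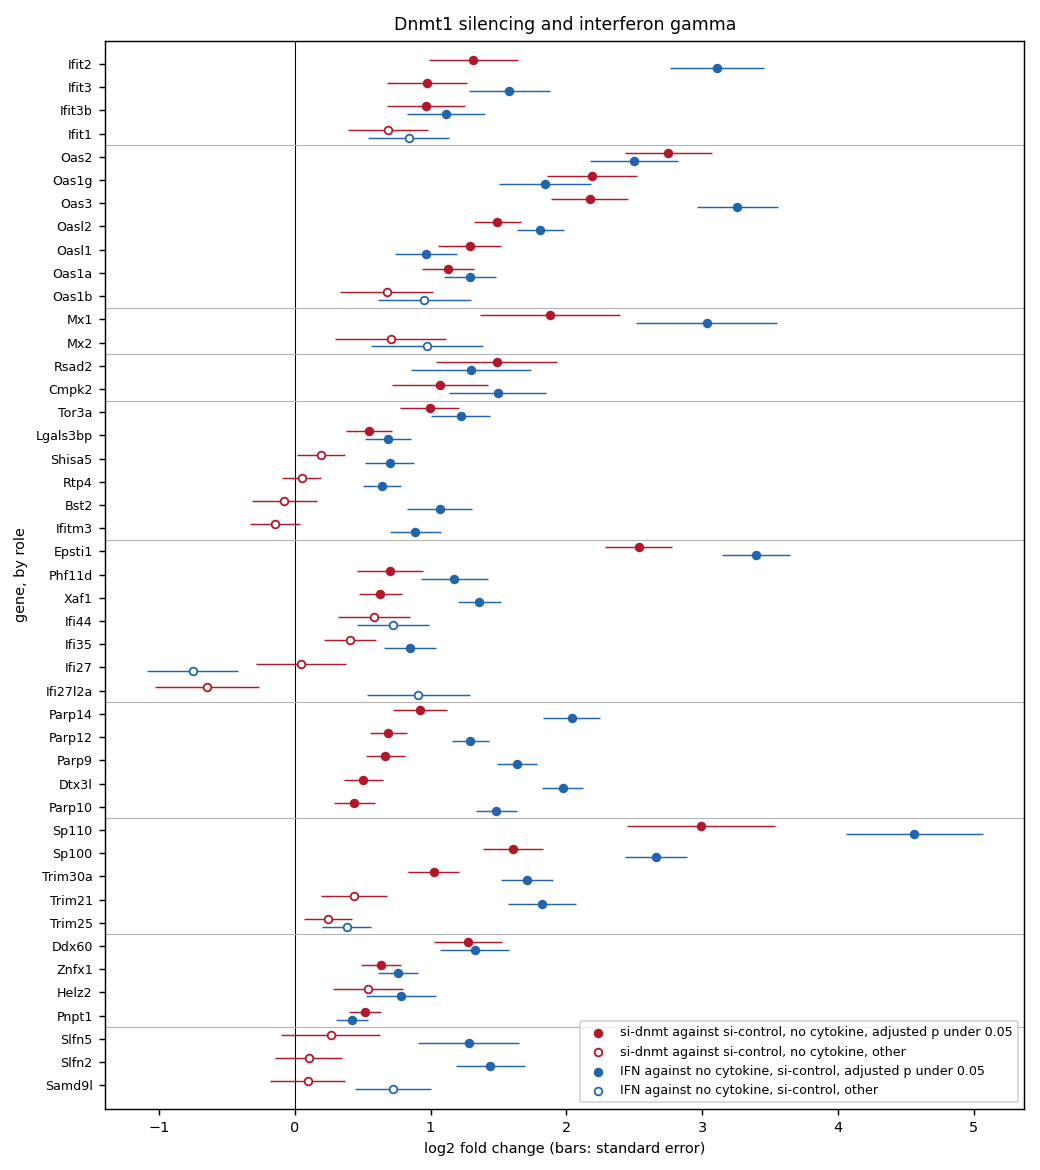
Log2 fold change (x axis) of each of the 45 genes (rows, grouped by role) for si-dnmt against si-control without cytokine (red) and for IFN against no cytokine in si-control (blue), with standard errors as bars and open points where the adjusted p was not under 0.05. The red and blue points lie close together for most OAS genes and RNA helicases, and the blue points lie further right for the PARP genes, Slfn2, Ifitm3 and Bst2.

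The OAS family, sensors of double-stranded RNA, most of which make the second messenger that activates RNase L, moved most as a group, with 6 of 7 higher and a median log2 fold change of 1.49. Oas2 was measured at 2.02, 1.33, 4.70 and 4.31 CPM in si-control replicates 1 to 4 and at 29.9, 26.9, 12.5 and 14.9 CPM in si-dnmt. All 4 silenced libraries were higher, and the log2 fold change was 2.75 (SE 0.32, adjusted p = 6e-07). With IFN, Oas2 reached 22.6, 21.0, 12.7 and 14.4 CPM in si-control and 69.1, 58.9, 32.9 and 45.6 CPM in si-dnmt. The silenced cells without cytokine thus overlapped the IFN-treated control cells, and silenced cells with IFN lay above both. Oas1g, Oas3, Oasl2, Oasl1 and Oas1a also rose, by 2.19, 2.17, 1.49, 1.29 and 1.13 on the log2 scale. Oas1b, the member linked to flavivirus resistance in mice, was at 6.47, 4.40, 7.16 and 7.76 CPM in si-control and 11.8, 14.2, 6.18 and 9.31 CPM in si-dnmt, so the groups overlapped (log2 fold change 0.68, SE 0.34, adjusted p = 0.18). IFN values were 17.4, 16.9, 7.09 and 8.75 CPM in si-control and 21.0, 18.7, 10.6 and 12.4 CPM in si-dnmt. With the replicate number as a block the adjusted p was 0.028. Oas1a and Oas1g are close copies: 57.6% of the 50-base stretches of Oas1a transcripts also occur in Oas1g transcripts, so reads may have been split between them.

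Among the IFIT proteins, IFIT1 binds viral RNA at its 5′ end. Of the IFIT genes, 3 of 4 rose with silencing, and the order of the libraries depended on the replicate pair. Ifit2 was at 52.9, 36.5, 90.5 and 91.6 CPM in si-control and at 199.7, 195, 128 and 154 CPM in si-dnmt, with no overlap (log2 fold change 1.32, SE 0.33, adjusted p = 0.0047). IFN took it to 864, 762, 395 and 324 CPM in si-control and 824, 932, 502 and 519 CPM in si-dnmt, far above the silenced cells without cytokine. Ifit1 was at 106, 72.6, 149 and 147 CPM in si-control and at 212, 238, 149 and 168 CPM in si-dnmt. Replicates 3 and 4 hardly differed between the siRNAs, and the overall change was not called (log2 fold change 0.69, SE 0.29, adjusted p = 0.11; with the replicate block, adjusted p = 0.039). Its IFN values were 297, 282, 144 and 127 CPM in si-control and 279.7, 299, 180.1 and 202 CPM in si-dnmt, so that in si-control replicates 3 and 4 IFN left Ifit1 below its resting level. Ifit3 and Ifit3b rose by 0.98 and 0.96 on the log2 scale, but neither was called in replicates 3 and 4 alone or with the groups fitted alone. In replicates 3 and 4 Ifit3 was at 229 and 227 CPM in si-control and 204 and 291 CPM in si-dnmt, so these libraries overlapped. Leaving out replicate 1 or 2 of si-control, or replicate 2 of si-dnmt, ended both calls, and leaving out replicate 1 of si-dnmt ended that of Ifit3. They share 51.2% of the 50-base stretches of Ifit3 transcripts, which makes their separate counts uncertain.

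The Mx GTPases trap viral nucleocapsids, though the GENCODE M21 annotation lists Mx2, like Oas1b, as a polymorphic pseudogene. Mx1 was at 1.36, 0.795, 3.38 and 3.41 CPM in si-control and 8.59, 9.67, 7.64 and 7.58 CPM in si-dnmt, and the groups did not overlap (log2 fold change 1.88, SE 0.51, adjusted p = 0.01). IFN gave 29.9, 26.5, 8.18 and 9.83 CPM in si-control and 57.9, 58.3, 23.1 and 28.3 CPM in si-dnmt. In replicates 3 and 4 the silenced cells without cytokine were thus near the IFN-treated control cells, and in replicates 1 and 2 well below them. Mx2 was at 12.7, 8.85, 15.6 and 13.2 CPM in si-control and 24.7, 26.2, 12.9 and 18.7 CPM in si-dnmt, with overlap and no call (log2 fold change 0.71, SE 0.41, adjusted p = 0.25). Its IFN values were 40.0, 35.2, 11.2 and 12.9 CPM in si-control and 36.0, 32.8, 18.6 and 20.0 CPM in si-dnmt.

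Rsad2 (viperin) and Cmpk2, neighbouring genes whose products make a chain-terminating nucleotide, both rose. Rsad2 was at 81.9, 66.4, 107 and 115 CPM in si-control and 308, 299, 196 and 236 CPM in si-dnmt, all above control (log2 fold change 1.49, SE 0.44, adjusted p = 0.019). IFN gave 386, 332, 97.1 and 96.5 CPM in si-control and 486, 512, 255 and 268 CPM in si-dnmt. In replicates 3 and 4 silencing alone therefore gave more Rsad2 than IFN alone did. Cmpk2 was at 50.4, 32.9, 66.5 and 66.1 CPM in si-control and 116, 128, 87.5 and 121 CPM in si-dnmt (log2 fold change 1.07, SE 0.36, adjusted p = 0.035), and with IFN at 225, 214, 86.8 and 81.7 CPM and 249, 238, 153 and 159.9 CPM. Again no silenced library fell within the control range. Leaving out replicate 1 or 2 of si-control ended the call of Rsad2. That of Cmpk2 was lost in 5 of 8 such omissions, namely si-control replicate 1 or 2 and si-dnmt replicate 1, 2 or 4.

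Membrane and secreted proteins behaved differently, with 2 of 6 higher and a median log2 fold change of 0.12. Tor3a, a torsin-family ATPase of the endoplasmic reticulum, was at 60.2, 55.6, 75.5 and 74.6 CPM in si-control and 149.7, 144, 106 and 130.4 CPM in si-dnmt, without overlap (log2 fold change 0.99, SE 0.22, adjusted p = 0.0015). IFN took Tor3a to 193, 196, 113 and 119 CPM in si-control and 266, 258, 165 and 197 CPM in si-dnmt. Ifitm3, which blocks fusion of virus with the endosome, was at 401, 361, 345 and 314 CPM in si-control and 401, 393, 225 and 266 CPM in si-dnmt, so replicates 1 and 2 were level with control and replicates 3 and 4 lower (log2 fold change -0.15, SE 0.18, adjusted p = 0.64). IFN alone raised it to 698, 761, 547 and 627 CPM (log2 fold change 0.89, SE 0.18, adjusted p = 0.00095), and silenced cells with IFN held 528, 574, 360.4 and 449.8 CPM. Lgals3bp was called higher by 0.55, but not in replicates 3 and 4 alone, with the groups fitted alone or without replicate 1 or 2 of either siRNA. Bst2 (tetherin, which holds budding virus at the cell surface), Rtp4 and Shisa5 were not called, with log2 fold changes of -0.08, 0.05 and 0.19, although IFN raised each of them.

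Among the Ifi-named and associated genes 3 of 7 rose. Epsti1 was at 0.891, 1.06, 2.20 and 2.42 CPM in si-control and 10.2, 11.1, 7.64 and 9.59 CPM in si-dnmt, all above control (log2 fold change 2.53, SE 0.25, adjusted p = 3.3e-08). It stood at 18.5, 18.1, 15.5 and 17.8 CPM with IFN in si-control and 41.4, 41.6, 27.6 and 29.0 CPM with IFN in si-dnmt. Ifi27l2a went the other way in replicates 3 and 4: it was at 13.6, 9.17, 18.6 and 18 CPM in si-control and 14.6, 13.3, 4.54 and 5.73 CPM in si-dnmt (log2 fold change -0.64, SE 0.38, adjusted p = 0.27; with the replicate block, adjusted p = 0.03). With IFN it was at 24.8, 33.0, 24.8 and 29.2 CPM in si-control and 11.9, 16.9, 5.98 and 10.3 CPM in si-dnmt, where every silenced library was lower (log2 fold change -1.31, SE 0.38, adjusted p = 0.015). The pro-apoptotic Xaf1 rose by 0.63. Phf11d was called higher by 0.70, but not in replicates 3 and 4 alone, with the groups fitted alone or in 5 of 8 omissions of 1 library (si-control replicate 1, 2 or 3, si-dnmt replicate 1 or 2). Ifi44, Ifi35 and Ifi27 were not called, at 0.58, 0.41 and 0.05.

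All 5 of the PARP genes and Dtx3l rose, by 0.44 to 0.92 on the log2 scale. These encode ADP-ribosyltransferases, and the ubiquitin ligase DTX3L forms a complex with PARP9. Parp14 was at 216, 199, 187 and 192 CPM in si-control and 459, 448, 299 and 299.5 CPM in si-dnmt, with no overlap (log2 fold change 0.92, SE 0.20, adjusted p = 0.0016). IFN took it further, to 1110.0, 1056, 589.6 and 505 CPM in si-control and 1070.5, 1034, 729.6 and 731 CPM in si-dnmt. Parp10 was at 58.3, 41.5, 63.6 and 55.2 CPM in si-control and 84.6, 76.8, 58.4 and 76.9 CPM in si-dnmt (log2 fold change 0.44, SE 0.15, adjusted p = 0.042). Replicate 3 of si-dnmt lay within the control range, and the call was lost in 6 of 8 omissions of 1 library (replicate 1, 2 or 4 of either siRNA), without the low-count filter, with the groups fitted alone and in replicates 3 and 4 alone. The call of Dtx3l was lost without si-dnmt replicate 1 and in replicates 3 and 4 alone. With IFN, Parp10 was at 164, 177, 119.9 and 151 CPM and 170.3, 173, 147 and 169 CPM. Parp9 and Dtx3l start head to head and overlap by 9.40% and 8% of their exonic bases, and since the strand setting of the counting is not given, reads there cannot be assigned.

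Of the TRIM and speckled proteins 3 of 5 rose. Sp110, a nuclear-body protein, had the largest log2 fold change of the 45, 2.99 (SE 0.54, adjusted p = 0.00025), from very few reads. It was at 0.188, 0.053, 0.0879 and 0.0897 CPM in si-control, which is 4, 1, 2 and 2 counts, and at 0.89, 1.33, 0.683 and 0.66 CPM in si-dnmt, which is 20, 31, 20 and 19 counts. The ratio of the summed counts, scaled for depth, was 8.20 (exact 95% interval 4.13 to 18.5, for counting error only). IFN gave Sp110 levels of 3.25, 3.33, 1.64 and 2.27 CPM in si-control and 8.39, 9.33, 6.07 and 6.12 CPM in si-dnmt, and 36.0% of the 50-base stretches of its transcripts occur in transcripts of other genes. Trim25, the ubiquitin ligase of the RIG-I pathway, was at 239.5, 208, 208 and 199 CPM in si-control and 296, 282, 216 and 221 CPM in si-dnmt, with a small overlap and no call (log2 fold change 0.25, SE 0.18, adjusted p = 0.37). Its IFN values were 362, 346, 203 and 203 CPM and 342, 344, 262 and 266 CPM. Sp100 and Trim30a rose by 1.61 and 1.02, and Trim21, the cytosolic antibody receptor, was at 0.44 (SE 0.24, adjusted p = 0.23).

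The RNA helicases and RNA decay factors rose in 3 of 4 cases. Ddx60, a helicase that aids RNA sensing, was at 27.8, 16.5, 25.7 and 26.4 CPM in si-control and 69.7, 70.7, 42.4 and 51.1 CPM in si-dnmt, all above control (log2 fold change 1.28, SE 0.25, adjusted p = 0.00062). Ddx60 with IFN was at 84.1, 73.9, 44.7 and 39.3 CPM in si-control and 139.9, 142, 87.1 and 91.1 CPM in si-dnmt. Pnpt1, the mitochondrial polynucleotide phosphorylase, was at 41.3, 43.0, 44.3 and 42.7 CPM in si-control and 56.3, 67.8, 60.1 and 61.3 CPM in si-dnmt (log2 fold change 0.52, SE 0.12, adjusted p = 0.0021), and here both replicate pairs moved alike. Its IFN values were 71.2, 56.8, 57.0 and 45 CPM and 76.6, 78.5, 70.2 and 65.9 CPM. Znfx1, a helicase that binds viral RNA, rose by 0.63, and Helz2 was not called at 0.54.

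None of the 2 Schlafen genes and Samd9l, a restriction factor of poxviruses, was called with silencing over all replicates. Slfn5 was at 332, 340.1, 183 and 197 CPM in si-control and 429, 392, 218 and 225 CPM in si-dnmt (log2 fold change 0.26, SE 0.37, adjusted p = 0.68). The replicate pairs differed more than the siRNAs did, and within each pair Slfn5 was called higher with silencing. With IFN, Slfn5 reached 993, 919, 349 and 298 CPM in si-control and 805, 896, 474 and 461 CPM in si-dnmt. Samd9l was at 359.6, 390.4, 284 and 324 CPM in si-control and 450.0, 474, 261 and 267 CPM in si-dnmt, higher in the first pair and lower in the second (log2 fold change 0.10, SE 0.28, adjusted p = 0.85). With IFN it was at 727, 684, 458 and 375 CPM and 611, 667, 337 and 347 CPM. Slfn2 had a log2 fold change of 0.10 (SE 0.25, adjusted p = 0.82).

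**Figure D2:**
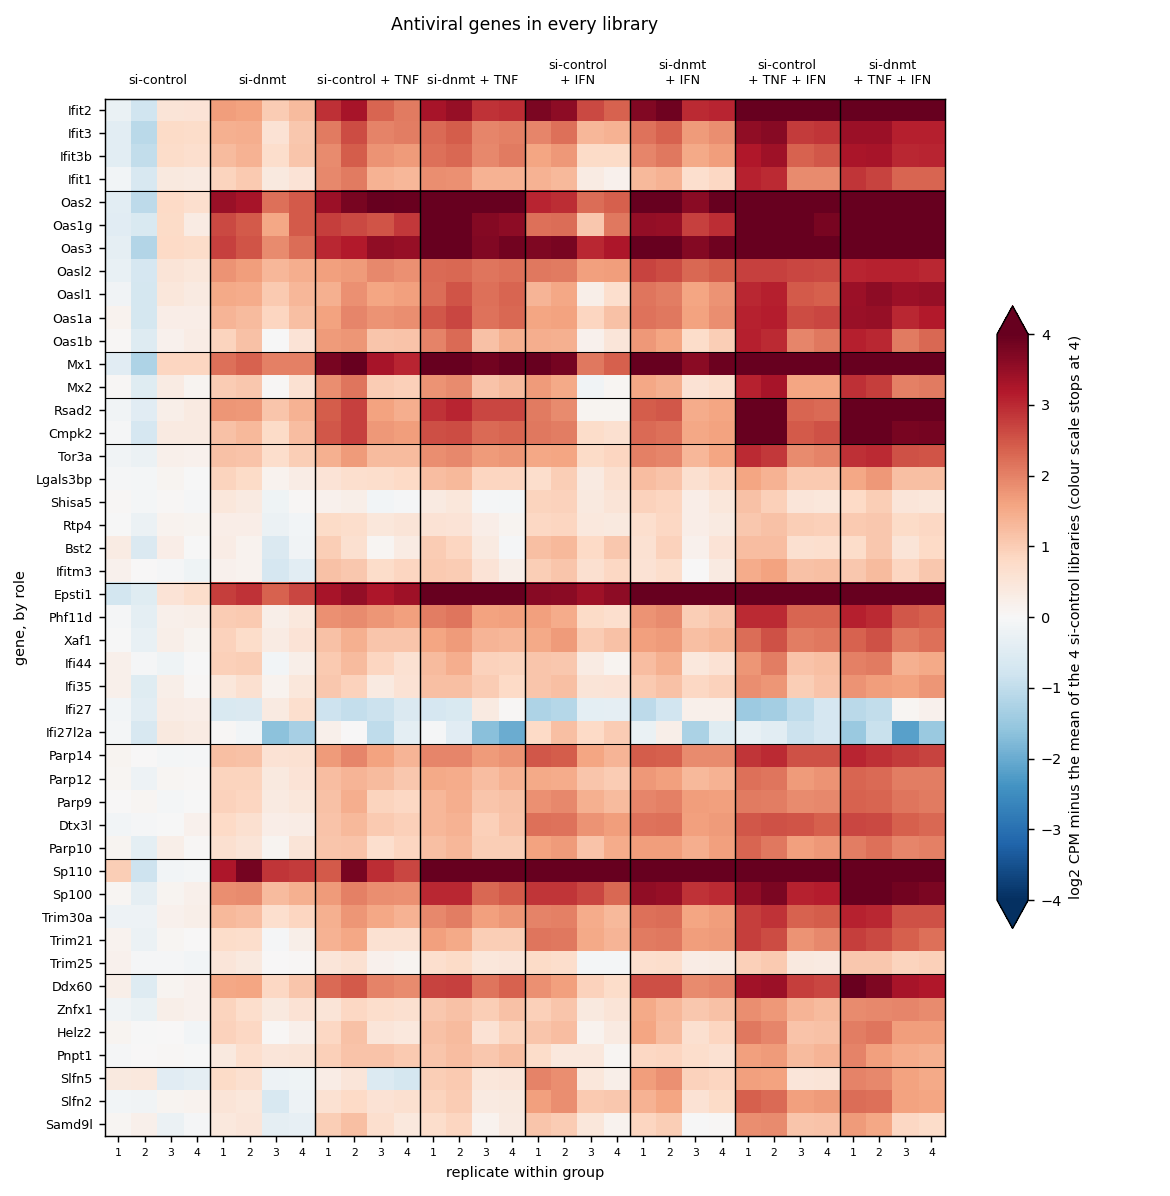
Log2 CPM of the 45 genes (rows, by role) in the 32 libraries (columns, 4 replicates in each of 8 groups), as the difference from the mean of the 4 si-control libraries, with the colour scale stopping at 4. Si-dnmt without cytokine ranged from -1.66 to 3.82, and in most groups replicates 1 and 2 are deeper in colour than replicates 3 and 4.

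The size of the silencing effect depended on the replicate pair. Within replicates 1 and 2, 41 genes were called higher and 1 lower, with a median log2 fold change of 1.14 (background 13.1% higher and 10.8% lower). Within replicates 3 and 4, 23 were higher and 5 lower, with a median of 0.25 (background 17.7% and 18.8%). The difference of the effect between the pairs, tested in a fit with a mean for each group and pair, was called for 36 genes, smaller in replicates 3 and 4 for 35 and larger for 1, Ifi27. Of all genes tested, 5.28% were called smaller and 2.20% larger. The pairs had been set apart in these same data, so the test is not independent of how they were chosen. The 23 genes higher within both pairs included 6 of 7 OAS genes, Mx1, Ifit2, Rsad2, Cmpk2, Epsti1, Sp100 and Sp110. They also included Ddx60, Parp9, Parp12, Parp14 and Slfn5, the last of which was not called over all replicates. The share of all genes higher within both pairs was not counted. The 5 lower within replicates 3 and 4 were Bst2, Ifi27l2a, Ifitm3, Rtp4 and Slfn2, and the 1 lower within replicates 1 and 2 was Ifi27. Oas2 had an effect of 4.08 in the first pair and 1.60 in the second, whereas Sp110 (3.11 and 2.84) and Pnpt1 (0.57 and 0.48) had similar effects, and their differences between pairs, -0.26 (SE 1.20, adjusted p = 0.95) and -0.08 (SE 0.16, adjusted p = 0.87), were not called.

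The resting level and the depth of silencing moved with the pairs too. In si-control without cytokine, a test also added after the values were seen gave replicates 3 and 4 the higher level for 23 of the 45 genes and the lower for 2 (background 18.1% and 16.3%), with Mx1 1.63, Oas3 1.46, Ifit3 1.45 and Oas2 1.41 higher on the log2 scale. Dnmt1 fell 7.84-fold in replicates 1 and 2 and 23.2-fold in replicates 3 and 4, so the pair with the lower Dnmt1 had the smaller rise of the antiviral genes. The part of either in the results was not tested.

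**Figure D3:**
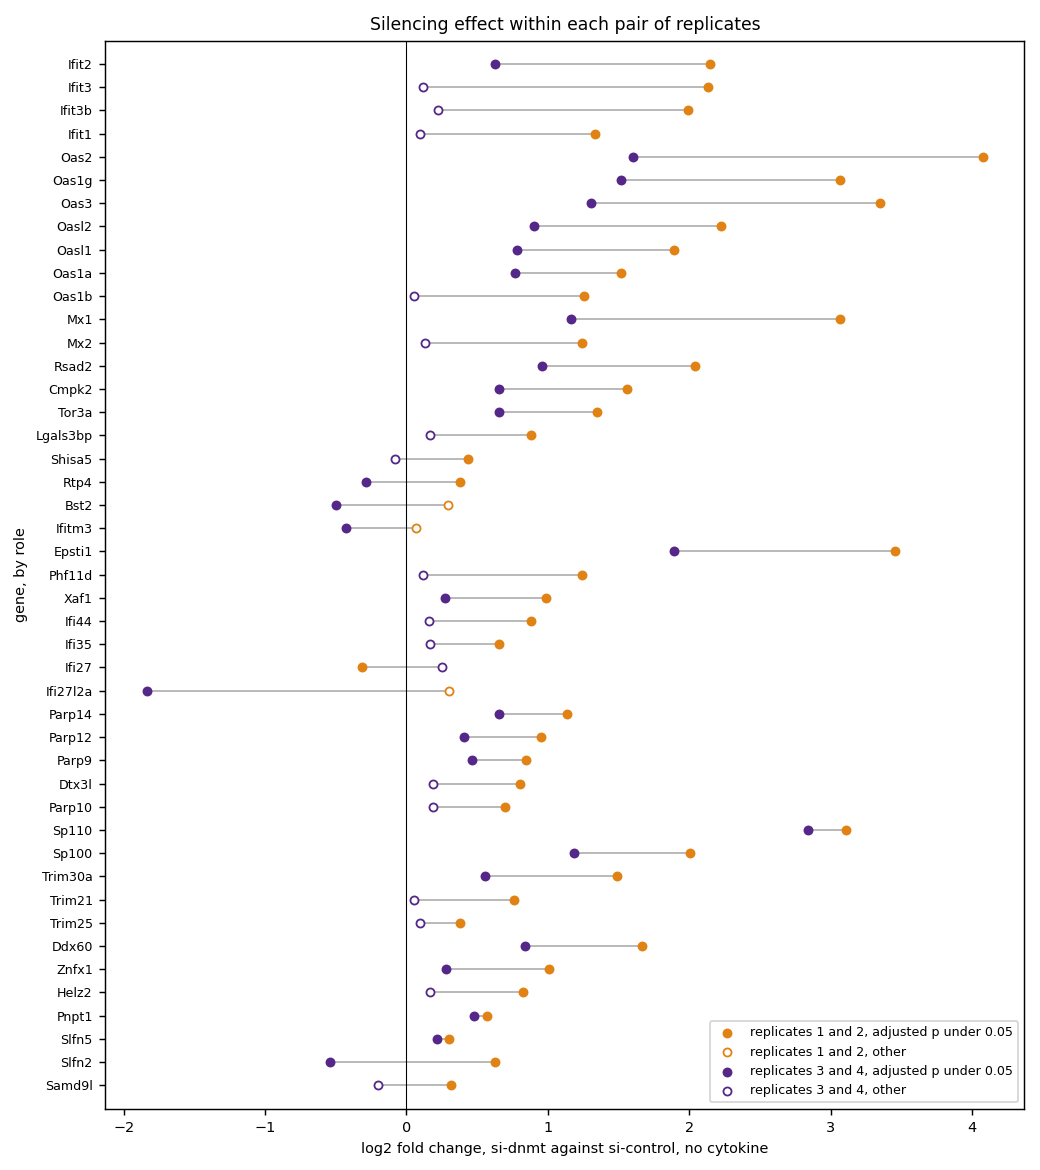
Log2 fold change of si-dnmt against si-control without cytokine (x axis) for each of the 45 genes (rows, by role), fitted within replicates 1 and 2 (orange) and within replicates 3 and 4 (purple), with open points where the adjusted p was not under 0.05. The orange point lies to the right for 44 of the 45 genes.

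IFN alone gives the reference for an interferon state, though with IFNγ and not a type I interferon. In si-control, IFN raised 37 of 45 genes (82.2%) and lowered 0, with a median log2 fold change of 1.29 (background 8.56% higher and 5.92% lower). The 8 not called were Ifi27, Ifi27l2a, Ifi44, Ifit1, Mx2, Oas1b, Samd9l and Trim25. All 28 genes called higher with silencing were also called higher with IFN, but both comparisons use the si-control libraries, so their sharing is no separate evidence. The IFN effect also depended on the pair: within replicates 1 and 2 it raised 44 genes and lowered 1 with a median of 1.82 (background 14.1% and 11.3%), and within replicates 3 and 4 it raised 36 and lowered 1 with a median of 0.69 (background 11.9% and 10%). That difference between pairs, a test added after the per-library values were seen, was called for 34 genes, all smaller in replicates 3 and 4 (background 2.07% smaller and 1.19% larger). It uses the same si-control libraries without cytokine as the silencing difference between pairs, so it is not separate evidence. TNF in si-control raised 39 and lowered 0, with a median of 1.41 (background 16.1% and 14.6%). Both cytokines together raised 43 and lowered 1, Ifi27 (-1.12), with a median of 2.49 (background 23.5% and 21.6%). Within replicates 1 and 2 and within replicates 3 and 4 the medians were 1.77 and 0.98 for TNF, and 2.88 and 1.79 for both.

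Silenced cells without cytokine were then set against si-control cells with IFN, groups that share no library. The silenced cells were lower for 20 of 45 genes and higher for 0, with a median log2 difference of -0.51 (background 17.9% lower and 15.2% higher). The counts by role were as follows, and the difference between roles was not tested. All 5 PARP and Dtx3l genes, 4 of 5 TRIM and speckled proteins, 4 of 6 membrane and secreted proteins and 2 of 3 Schlafen and Samd9l genes were lower. Of the Ifi-named and associated genes 3 of 7 were lower. Of the rest, 1 of 7 OAS genes (Oas3), 1 of 4 IFIT genes (Ifit2), 0 of 4 helicases and decay factors, 0 of 2 Mx genes and 0 of 2 nucleotide enzymes were. The 5 nearest to the IFN level were Ddx60, at 96.6% of it (log2 difference -0.05, SE 0.25), Pnpt1 at 106.8% (0.09, SE 0.12), Znfx1 at 91.7% (-0.12, SE 0.15), Trim25 at 91.0% (-0.14, SE 0.18) and Ifi44 at 91.0% (-0.14, SE 0.26). The standard errors show how far these could lie from equality, and a missing call does not show equal levels. A gene that IFN moved little is near the IFN level with or without silencing. Trim25 and Ifi44 were called neither with IFN (log2 fold changes 0.38 and 0.72) nor with silencing. The IFN effects of Pnpt1, Znfx1 and Ddx60 were 0.42, 0.76 and 1.33. The 5 farthest below were Ifit2 at 28.8% of the IFN level, Sp110 at 33.7%, Ifi27l2a at 34.1%, Dtx3l at 36.1% and Trim21 at 38.3%. Within replicates 1 and 2, 33 genes were lower than with IFN and 2 higher (background 20.5% and 17.4%), and within replicates 3 and 4, 25 were lower and 7 higher (background 24.4% and 21.2%).

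**Figure D4:**
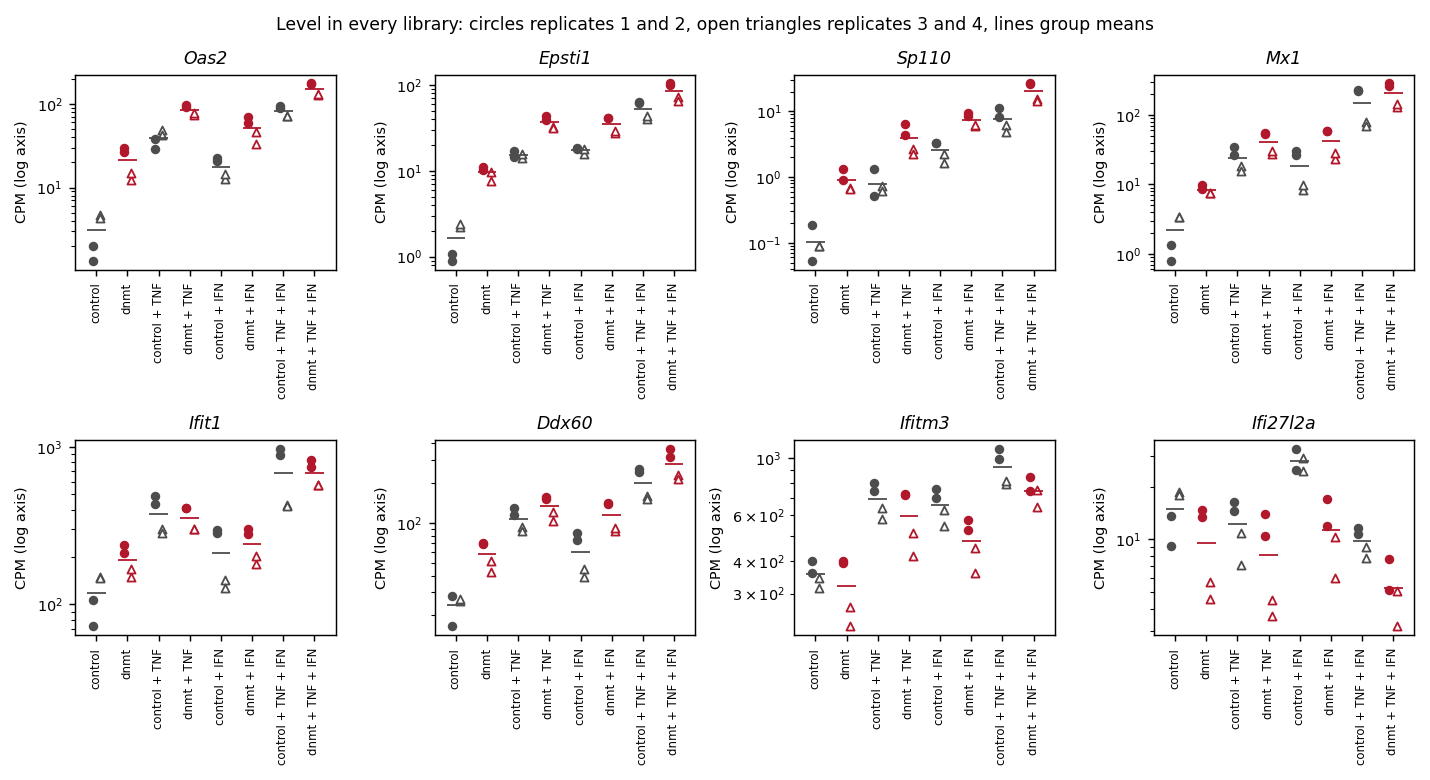
CPM on a log axis for 8 of the genes in every library of the 8 groups (x axis), grey for si-control and red for si-dnmt, with circles for replicates 1 and 2, open triangles for replicates 3 and 4 and lines for group means. Oas2 and Ddx60 without cytokine in si-dnmt overlap si-control with IFN, Ifitm3 does not, and Ifi27l2a is lower with si-dnmt in the IFN groups.

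Genes upstream of the antiviral set and the IFNγ class targets were read from a list of pathway genes. Of 8 interferon genes, only Ifnb1 had enough counts to be tested, and the other 7 had at most 4 counts in any library. Ifnb1 lay between 0 and 0.179 CPM in si-control and 0 and 0.139 CPM in si-dnmt, a difference not detectable at this depth (log2 fold change 0.29, SE 1.07, adjusted p = 0.89). None of the 5 interferon receptor genes tested was called with silencing. Of all genes tested, 9.58% were called higher with silencing and 8.88% lower, which is the background for the counts that follow. Of 11 signalling genes, 7 rose and 0 fell, among them Irf7 by 1.45 (SE 0.30), Irf5 by 2.48 (SE 0.32) and Stat2 by 0.72 (SE 0.15). Irf7, the amplifier of type I interferon genes, had a mean of 104.5 CPM (SD 23.7, n = 4) in si-control, 286 CPM (SD 124, n = 4) in si-dnmt and 214 CPM (SD 76.8, n = 4) in si-control with IFN. Of 10 RNA and DNA sensors, 6 rose with silencing, such as Ifih1 by 0.97 (SE 0.21), Tlr3 by 0.93 (SE 0.17) and Zbp1 by 2.99 (SE 0.31). Of 4 negative regulators and modifiers, Usp18 and Socs1 rose and Isg15, the ubiquitin-like modifier, was not called (0.57, SE 0.28, adjusted p = 0.16).

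The IFNγ class targets rose with silencing in 7 of 10 cases (background 9.58%) and with IFN in 10 of 10 (background 8.56%). All 10 were lower in silenced cells without cytokine than in si-control cells with IFN (background 17.9%). Gbp2, a guanylate-binding protein, had a mean of 79.9 CPM (SD 2.97, n = 4) in si-control, 128 CPM (SD 40.1, n = 4) in si-dnmt and 7170 CPM (SD 1593, n = 4) in si-control with IFN. Cxcl10, a T cell chemokine, had means of 12.1 CPM (SD 4.83, n = 4), 31.6 CPM (SD 6.82, n = 4) and 289 CPM (SD 141, n = 4) in the same groups. Irf1, which IFNγ drives, was also lower in silenced cells without cytokine than in si-control cells with IFN (log2 difference -3.89, SE 0.16). Its mean was 35.8 CPM (SD 6.77, n = 4) in si-control, 50.9 CPM (SD 9.62, n = 4) in si-dnmt and 753 CPM (SD 150, n = 4) in si-control with IFN. The median difference over the 45 antiviral genes, -0.51, was smaller, but the difference between the lists was not tested. The 10 targets were listed as genes that IFNγ induces, so a larger gap from the IFN level follows in part from that choice.

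The next question was whether silencing added to the cytokine response. With TNF, si-dnmt was above si-control for 8 of 45 genes and below for 0 (median 0.25, background 10.4% higher and 9.59% lower). With IFN it was above for 11 and below for 1, Ifi27l2a (median 0.28, background 10.8% and 9.54%). With TNF and IFN together it was above for 6 and below for 0 (median 0.20, background 8.97% and 8.72%). The 6 genes higher with silencing in all 4 cytokine states were Epsti1, Oas1g, Oas2, Oasl1, Sp100 and Sp110, while 17 were called higher in the state without cytokine only and 17 in no state. The shares of all genes with these patterns were not counted. With the replicate number as a block these counts were 16 higher and 1 lower with TNF (background 17.2% and 16.2%), 19 and 3 with IFN (background 17.9% and 16.6%) and 14 and 3 with both (background 15.2% and 15.6%). Those called lower under the block were Ifi27l2a with IFN and with both cytokines, Ifitm3 with IFN (-0.47) and with both (-0.28), Bst2 with IFN (-0.53), and Samd9l with TNF (-0.30) and with both (-0.28).

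**Figure D5:**
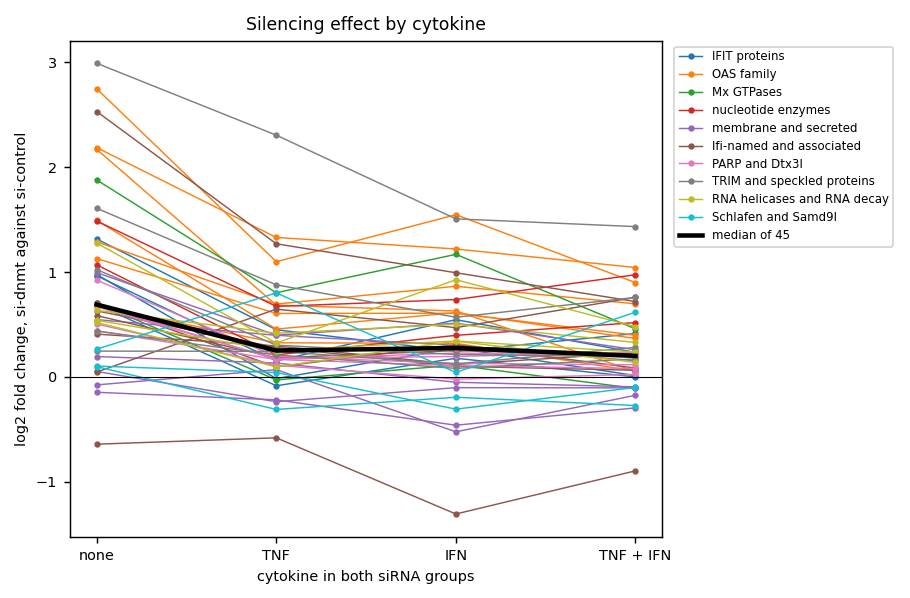
Log2 fold change of si-dnmt against si-control (y axis) for each of the 45 genes without cytokine, with TNF, with IFN and with both (x axis), coloured by role, with the median in black. The median goes from 0.69 without cytokine to 0.25, 0.28 and 0.20, and 40 of the 45 genes have their largest value without cytokine. The share of all genes with that pattern was not counted, and each step from the first value rests on the same libraries without cytokine.

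IFN raised 25 of the 45 genes in si-dnmt cells and lowered 0, with a median of 0.78 (background 6.66% and 2.35%), where it had raised 37 in si-control. Whether silencing changed the response to a cytokine was tested as an interaction. Each interaction subtracts the same silencing effect without cytokine, so the results for TNF, IFN and both are not separate evidence. For TNF and for IFN the edgeR test called 0 of 45 genes (background for TNF 0.00656% higher and 0.0262% lower, and for IFN 0% and 0.0459%). Of the 45, 12 and 14 had an unadjusted p under 0.05, and the share of all genes under it was not counted. DESeq2 called 4 and 2, all lower. Over all 15254 genes DESeq2 called 11 higher and 42 lower for TNF, and 0 and 32 for IFN. For both cytokines 4 genes were called, all lower (background 0.157% higher and 0.374% lower): Oas3 by -2.12 (SE 0.39, adjusted p = 0.0064), Oas2 by -1.85 (SE 0.42, adjusted p = 0.034), Epsti1 by -1.81 (SE 0.32, adjusted p = 0.0047) and Oasl2 by -1.13 (SE 0.24, adjusted p = 0.022). With the replicate block 7, 3 and 11 genes were called lower for TNF, IFN and both (background 0.557%, 0.367% and 2.57%).

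Oas3 shows what this interaction is made of. It rose from 9.10, 5.20, 20.3 and 19.6 CPM in si-control to 78.6, 67.6, 43.9 and 55.0 CPM in si-dnmt, but with TNF and IFN it was at 420.5, 393, 324 and 332 CPM in si-control and 402, 429, 359.7 and 332 CPM in si-dnmt. The large gap without cytokine was gone with both. Oas2 instead stayed higher with silencing, at 89.2, 93.4, 70.8 and 72.0 CPM in si-control and 173, 176, 127 and 132 CPM in si-dnmt with both cytokines, with a smaller ratio than at rest. Epsti1 was at 62.0, 63.6, 39.8 and 43.5 CPM against 105, 101, 73.3 and 65.4 CPM, and Oasl2 at 550.5, 555, 524 and 513 CPM against 688, 697, 699.6 and 676 CPM.

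The smaller silencing effect with cytokine was called for most of the genes in replicates 1 and 2 and for few in replicates 3 and 4. For IFN, the interaction was called lower for 33 genes and higher for 0 within the first pair, with a median of -0.94 (background 1.51% and 0.286%), and lower for 2 and higher for 1 within the second, with a median of 0.08 (background 0.672% and 0.342%). Within replicates 3 and 4 silenced cells with IFN were above si-control cells with IFN for 35 of 45 genes and below for 5 (median 0.45, background 18.6% and 20%), and within replicates 1 and 2 above for 16 and below for 3 (median 0.19, background 12.7% and 12.6%). For TNF, the interaction was lower for 28 genes and higher for 0 within replicates 1 and 2 (median -0.76, background 1.55% and 0.423%), and lower for 6 and higher for 2 within replicates 3 and 4 (median -0.06, background 4.78% and 3.26%). For both cytokines it was lower for 38 and higher for 1 within the first pair (median -1.10, background 3.37% and 1.49%), and lower for 6 and higher for 6 within the second (median 0.09, background 6.76% and 5.06%).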

How the data were processed

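Bulk RNA-seq was analysed in 32 libraries. The authors trimmed reads with cutadapt 4.9, checked them with FastQC 0.12.1 and MultiQC 1.27.1, and deposited raw counts per gene from featureCounts. DESeq2 is also named in the submitters' processing notes. No aligner, genome build or strand setting was found: not given in the sources used here. The deposited merged table equalled the per-library tables summed by symbol. The authors' counts were tested with edgeR 4.0.16 in R 4.3.3 (filterByExpr with a minimum count of 10, TMM scaling, a mean for each of 8 groups, the quasi-likelihood test, Benjamini-Hochberg adjustment over all 15254 genes tested, calls at an adjusted p under 0.05), after tests on simulated data. CPM values use the TMM-scaled library totals, and levels are not compared between genes. Standard errors (SE) were derived from the log2 fold change and its F statistic. DESeq2 1.42.0, other scalings, no filter, subsets of libraries and the replicate number as a block were tried. Same-numbered libraries deviated together from their group means in all 36 pairs examined (correlations 0.30 to 0.62), and by that criterion the numbers from the labels were taken to pair the libraries. Only 15 of the 36 correlated best with their own number, and 0 of 4 for silencing without cytokine, so pairing by number cannot be told apart from the split between replicates 1 and 2 and replicates 3 and 4. Libraries are precise at these depths for most genes, and intervals given for counts cover counting error only. The members and lists were chosen with earlier results of these data known. Per-library values are given for the genes with the largest and the smallest silencing effect without cytokine in each role, and values for genes called lower with silencing, called in an interaction, or nearest to and farthest below the IFN level. Gene positions and shared 50-base stretches were taken from GENCODE M21, promoter windows from RefSeq (GRCm38.p6). Proteins were not analysed here. A gene of the signalling list is not reported here by name.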

Additional observations from a re-analysis of the deposited data

Results flagged for a closer look

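The CPM of Parp10 in si-dnmt with IFN was 147 in replicate 3 and 170.3, 173 and 169 in the others, a low sample far from the rest of its group. It was the 1 such sample in 160 groups of 4 examined, and chance flags about 1 in 20 groups.

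The effect of Dnmt1 silencing differed between cells with both cytokines and cells without for Oas3 (-2.12 on the log2 scale), Oas2 (-1.85), Epsti1 (-1.81) and Oasl2 (-1.13), by the edgeR interaction test. It differed between replicates 3 and 4 and replicates 1 and 2 for 36 of the 45 genes without cytokine. The IFN effect in si-control differed between these pairs for 34 of the 45. Both differences between pairs use the same si-control libraries without cytokine.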

How the results depend on the processing

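The rise without cytokine (28 genes) kept its direction under every alternative run, with 28 under DESeq2, DESeq2 size factors and library totals alone, 27 without the low-count filter and 23 with the groups compared fitted alone. Leaving out 1 library gave 21 to 28, the lowest without si-control replicate 1 or 2. Counts below are all calls, higher and lower. With the replicate block they were 17 for silencing with TNF, 22 with IFN and 17 with both, and 7, 3 and 11 for the TNF, IFN and combined interactions. The block moved no other count by over 1.5 times. With replicates 1 and 2 alone silencing gave 19 with TNF (18 higher), 19 with IFN (16 higher) and 15 with both (12 higher). With replicates 3 and 4 alone it gave 29 (25 higher), 40 (35 higher) and 30 (28 higher). The medians within the pairs were 0.23 and 0.27 with TNF and 0.10 and 0.43 with both. Over all genes more were called in the second pair too: with TNF 2098 higher and 1917 lower, then 2682 and 2839, and with both 1831 and 1819, then 2591 and 2906. IFN in si-dnmt gave 41 and 42, all higher (over all genes 1730 higher and 1257 lower, then 1418 and 1031). Silenced cells against si-control with IFN gave 35 and 32, in the same order of pairs. The TNF interaction gave 28 and 8, the IFN interaction 33 and 3, and the combined interaction 39 and 12. The interaction medians turned positive in replicates 3 and 4 alone, to 0.076 for IFN and 0.089 for both cytokines. DESeq2 called 4 genes in the TNF and 2 in the IFN interaction. DESeq2 size factors, library totals alone and no low-count filter each called 1 in the IFN interaction, and fitting the groups alone called 0 in the combined one. Leaving out 1 library gave 5 to 8 calls with TNF, 8 to 12 with IFN, 3 to 6 with both, 0 to 1 in the TNF and IFN interactions, 2 to 4 in the combined interaction and 18 to 30 for the si-control level between pairs. The estimate without cytokine changed sign for Ifi27l2a (0.30) and Ifitm3 (0.068) in replicates 1 and 2 alone, and for Samd9l (-0.20) in replicates 3 and 4 alone, with a range of -0.058 to 0.23 when 1 library was left out. The cause was not tested. Scaling by library totals alone took the all-gene median from -0.0058 to -0.18 for both cytokines in si-control and from -0.022 to 0.16 for silenced cells against si-control with IFN, where 2 members were then higher and 18 lower. For silencing without cytokine it split all calls into 2127 higher and 937 lower, against 1461 and 1355. Depth limits Sp110 and Ifnb1, which rest on few counts.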
